A study of Camellia sinensis with 24 samples.

Results

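Roots take up, move and store iron, zinc, manganese and copper through several families of membrane transporters, and 93 such genes were followed here among the 48505 genes of the tea (Camellia sinensis) count table. A gene was included when its description in the table carried one of 5 Pfam domains, and its expression was not used. The domains were ZIP (PF02535, 17 genes), NRAMP (PF01566, 17 genes), OPT (PF03169, 35 genes), the cation efflux domain of the CDF family (PF01545, 15 genes) and VIT (PF01988, 9 genes). RNA sequencing was carried out on roots of “1511”, a genotype tolerant to low K availability, and “1601”, an intolerant one, each a single individual of a hybrid cross propagated by cuttings. Roots of each plant were divided between both compartments of a hydroponic box and were grown with K for 60 days before the treatments. The treatments lasted 5 days. U.NK plants had 1 mM K2SO4 in each compartment and U.SK plants had 0 mM in each. Heterogeneous boxes combined both solutions, and their roots were collected apart as Sp.NK (the 1 mM side) and Sp.SK (the 0 mM side). Each of the 8 groups had 3 libraries, 24 in all, sampled at 1 time, and iron, zinc, manganese and copper were supplied alike in all of them.

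ZIP proteins carry zinc and iron into the cytosol, and IRT1 of Arabidopsis, the main iron uptake carrier of its root epidermis, is one of them. NRAMP proteins take up manganese and iron or release them from the vacuole, and the same domain also occurs in the ethylene signalling protein EIN2 of Arabidopsis. OPT proteins include peptide carriers and the YSL carriers of metals bound to nicotianamine, CDF proteins move zinc or manganese out of the cytosol into compartments, and VIT proteins load iron into the vacuole. Which metal each tea protein carries is not known from these files, so the members are described by their domain and gene identifier.

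Of the 93 members, 62 had enough counts to be tested, 66.7% against 73.3% of all genes. The tested members were 13 ZIP, 10 NRAMP, 21 OPT, 13 CDF and 5 VIT genes. The other 31 had few counts, and 5 of them had none in any library. These were the NRAMP genes TEA000600 and TEA001655, the OPT genes TEA000076 and TEA012491 and the VIT gene TEA026709. The untested member with the most counts was the NRAMP gene TEA024571, with 263 counts in all, of which 238 were in “1511” U.SK replicate 3. Its model overlaps a newly assembled model on the same strand. Of the 93 models, 8 were newly assembled from the reads, 8 overlap another gene model and 11 carry a further domain. The OPT genes TEA021263 and TEA006539 each overlap a model on the opposite strand. Reads of such a pair cannot be told apart if the counting did not use strand.

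Library totals ranged from 13214833 to 26309637 counts with a median of 18066086. The replicates differed more in “1511” than in “1601” on homogeneous K, with a biological coefficient of variation of 0.389 (U.NK) and 0.339 (U.SK) in “1511” against 0.176 and 0.191 in “1601”. Within “1511” U.NK, replicate 2 stood apart for many members, being the lowest of the 3 libraries in 30 of the 62. Within “1511” Sp.NK, replicate 2 was also the lowest for 30 of the 62. The 42 genes with the Casparian strip membrane protein domain summed to 971 to 2411 FPKM over all libraries, FPKM being counts per length and per library size. This family takes its name from proteins of the root endodermis but also holds relatives of other tissues, so its sum marks no single cell type. The 5 RuBisCO small chain genes, markers of green tissue, summed to 212 to 743 FPKM. These are bulk samples, so fewer cells of a type and less RNA per cell cannot be told apart.

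The level of the members differed most in the NRAMP family. TEA017264 was the most abundant member, with a mean of 213 FPKM over the 24 libraries, and took 59.9% of the summed FPKM of the NRAMP family and 17.9% of that of all members. It lies on scaffold 337 at 383489 to 390463 on the minus strand, with 12 exons. The next NRAMP genes were TEA017931 and TEA002429. Among OPT genes TEA025123 led with a mean of 75.0 FPKM and 38.1% of the sum of its family. In the ZIP family TEA029581 was highest at 55.7 FPKM and took 19.0% of the sum, followed by TEA000889 and TEA001242. In the CDF family TEA010576 was highest at 71.7 FPKM and took 23.6% of the sum, with TEA016960 and TEA033209 next. The VIT genes were expressed at a lower level, and TEA031109, with 22.9 FPKM, made up 59.4% of their sum. The median over tested members was 17.9 FPKM for ZIP, 15.9 for NRAMP, 4.35 for OPT, 17.8 for CDF and 2.87 for VIT.

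**Figure D1:**
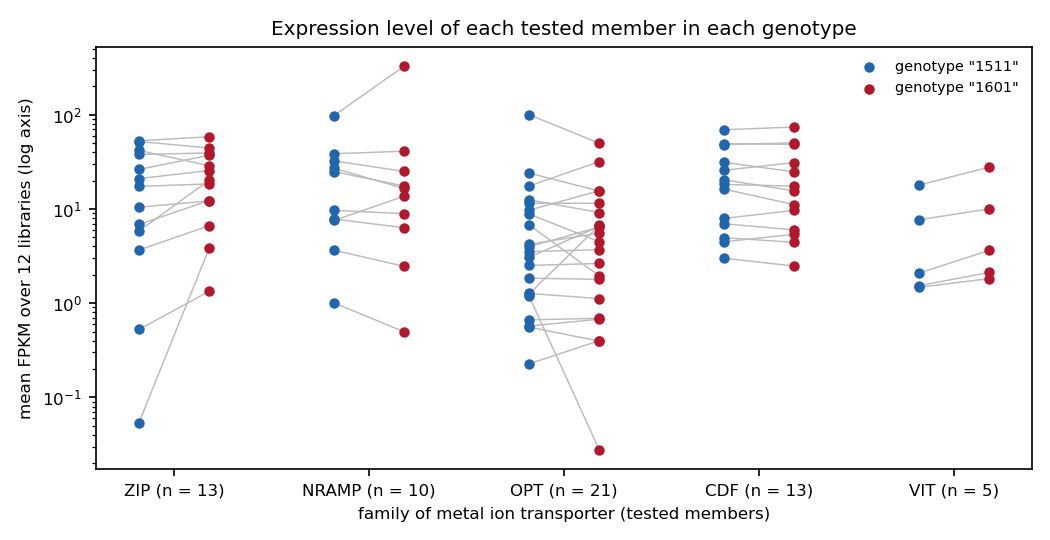
Mean FPKM over the 12 libraries of each genotype (log axis) for the 62 tested members, grouped by family. Points are members, blue for “1511” and red for “1601”, and grey lines join the values of 1 member. The highest point is the NRAMP gene TEA017264 in “1601” at 328 FPKM.

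The sum over a family was nearly steady for the CDF genes and varied widely for the NRAMP genes, of which TEA017264 took the largest part. The CDF sum stayed between 267 and 342 FPKM in all 24 libraries, and its group means ranged from 295 ± 3.35 (SD, n = 3) on U.NK in “1601” to 313 ± 25.4 on U.SK in “1511”. The NRAMP sum was 141 ± 8.25 FPKM on U.SK in “1511”, its lowest group, against 552 ± 82.8 on U.NK in “1601”, its highest. On U.SK in “1511” all libraries of the NRAMP sum lay between 134 and 150, and on Sp.SK in the same genotype between 216 and 434.

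K starvation on both sides of the box lowered a group of members in “1511”. Comparing U.SK with U.NK, 13 of the 62 members were called (21.0%, against 7.84% of all genes tested), with 12 lower and 1 higher. Over all genes tested 5.88% were lower and 1.96% higher. A member was called at a Benjamini-Hochberg adjusted p-value under 0.05 in edgeR's quasi-likelihood test. The 12 lower members were 4 NRAMP, 5 OPT, 1 ZIP, 1 CDF and 1 VIT gene. The median log2 fold change over the 62 was -0.03, against 0 over all genes. The Casparian strip genes summed to 1043 to 1999 FPKM on U.NK in “1511” and 2125 to 2411 on U.SK, and 26 chlorophyll a-b binding genes, also green-tissue markers, to 139 to 215 and 227 to 323. Neither sum overlapped between the groups, and their part in the result was not tested.

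TEA017264 had 142, 24.1 and 206 FPKM on U.NK in “1511” and 8.81, 9.52 and 13.7 on U.SK. The 3 U.SK libraries were all below the lowest U.NK library, replicate 2, which was itself several times below the other U.NK libraries. Its log2 fold change was -3.55 ± 0.69 (SE), 11.7-fold lower, with an adjusted p of 0.00593 in edgeR. In “1601” the same gene had 502, 358 and 381 FPKM on U.NK and 336, 475 and 364 on U.SK, and these libraries overlapped.

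The OPT gene TEA019706, on scaffold 820 at 720326 to 729832, had 3.07, 1.64 and 7.68 FPKM on U.NK in “1511”. On U.SK it had 0.759, 0.477 and 0.131, so the groups did not overlap. It fell by 3.23 ± 0.54 on the log2 scale (adjusted p = 0.00314, edgeR). In “1601” it stayed between 5.79 and 9.49 FPKM over the U.NK and U.SK libraries.

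The VIT gene TEA010168, on scaffold 1303 at 1837664 to 1838314 and with a single exon, belongs to the family of vacuolar iron loaders. It had 7.12, 2.37 and 11.1 FPKM on U.NK in “1511” and 0.762, 0.838 and 0.687 on U.SK. The U.SK libraries lay close together and below every U.NK library, and the fall was 3.17 on the log2 scale (log2 fold change -3.17 ± 0.69, adjusted p = 0.00972, edgeR). The other VIT genes tested were not called in this comparison.

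The NRAMP gene TEA009385 had 42.7, 6.47 and 47.2 FPKM on U.NK in “1511” against 6.02, 11.2 and 3.21 on U.SK. The groups overlapped, because U.NK replicate 2 lay within the U.SK range (log2 fold change -2.26 ± 0.67, adjusted p = 0.0419, edgeR). The OPT gene TEA021263 overlapped in the same way, with 9.76, 1.10 and 13.9 FPKM on U.NK and 1.30, 1.70 and 0.682 on U.SK (-2.77 ± 0.60, adjusted p = 0.00941). The CDF gene TEA016960, the second CDF gene by level, had 68.7, 24 and 66.7 FPKM on U.NK and 19.95, 27.3 and 23.3 on U.SK. It again overlapped through U.NK replicate 2 (-1.19 ± 0.25, adjusted p = 0.00836).

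Further lower members were the NRAMP gene TEA000624, a newly assembled NRAMP gene on scaffold 12221 (31915 to 37236), a newly assembled OPT gene on the minus strand of scaffold 14480 (3223 to 4759), the OPT genes TEA004183 and TEA027163 and the ZIP gene TEA024433, with log2 fold changes between -1.08 and -0.71. That OPT model lies within a second newly assembled OPT model on the opposite strand (41 to 5929), and reads of the pair cannot be told apart if the counting did not use strand. The 1 member that rose was the CDF gene TEA010440, on scaffold 481 at 216539 to 220018. It had 3.38, 4.74 and 3.35 FPKM on U.NK in “1511” and 12.8, 7.72 and 4.82 on U.SK. Its U.SK libraries were spread widely but all lay above U.NK (log2 fold change 1.12 ± 0.28, adjusted p = 0.0198, edgeR).

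**Figure D2:**
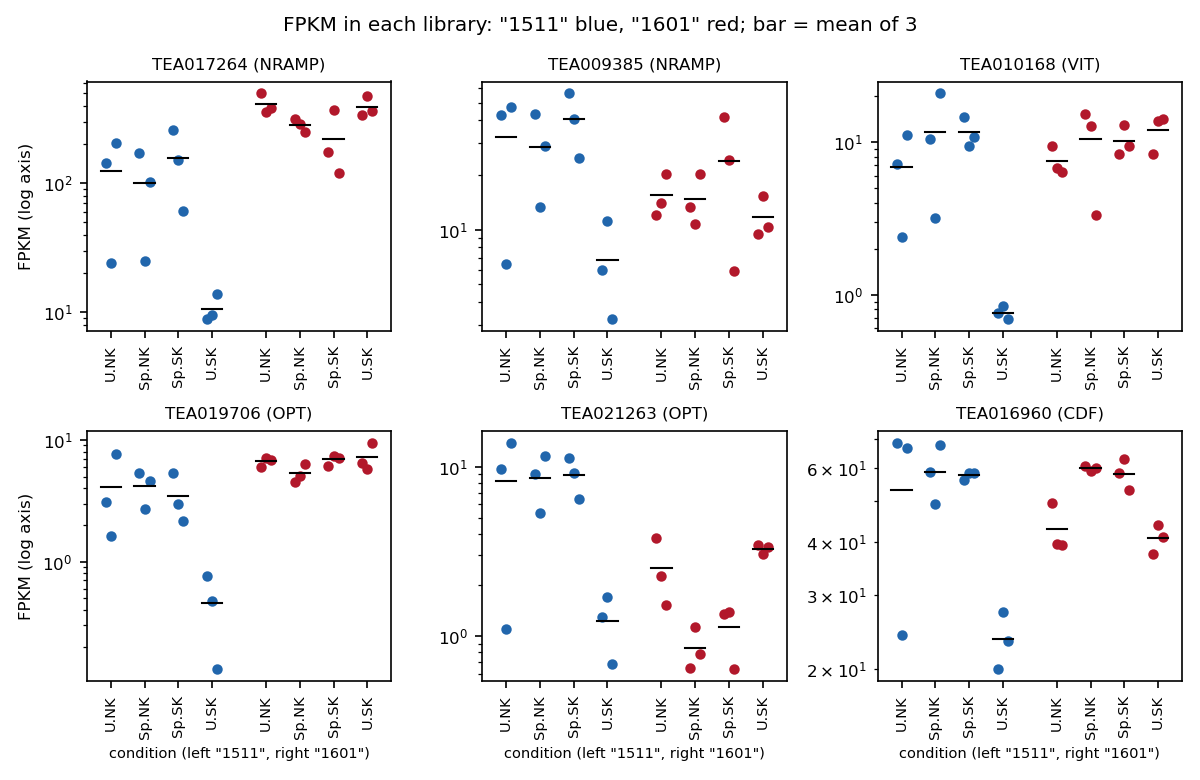
FPKM in each library (log axis) of 6 members in the 4 conditions of “1511” (blue, left) and “1601” (red, right), with black bars for the mean of 3 libraries. The U.SK libraries of “1511” form the lowest group of TEA017264, TEA010168 and TEA019706, with 8.81 to 13.7, 0.687 to 0.838 and 0.131 to 0.759 FPKM, and U.NK replicate 2 is the low U.NK point in each panel of “1511”.

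Among the 12 members called lower, “1511” U.NK replicate 2 was the lowest U.NK library for 10. The count of calls rested on single libraries, being 21 and 2 when U.NK replicate 2 or 3 was left out and 3 and 7 when U.SK replicate 1 or 2 was left out. Fitted on the 6 compared libraries alone, edgeR called 0 members (18 had an unadjusted p under 0.05) and DESeq2 called 5, while limma voom on all 24 libraries called 34. Here and below, counts from such other fits are given without the share of all genes called. They show only how far the calls depended on the fit. The call of TEA010168 was lost without U.NK replicate 3 (adjusted p = 0.0825) or U.SK replicate 1 (0.0558), and that of TEA010440 without U.NK replicate 1, U.NK replicate 3 or U.SK replicate 1 (0.0766, 0.132 and 0.184).

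In “1601” the comparison of U.SK with U.NK called 0 of the 62 members in edgeR, DESeq2 and limma voom, and 0% of all genes in edgeR. An unadjusted p under 0.05 was reached by 2 members in edgeR, and by 1024 of the 35557 genes. The smallest p belonged to the OPT gene TEA016756, on scaffold 2579. It had 1.18, 1.04 and 1.02 FPKM on U.NK and 1.91, 1.47 and 2.35 on U.SK (log2 fold change 0.82 ± 0.35, unadjusted p = 0.0287, adjusted p = 1). The libraries did not overlap, but the difference did not pass the test across all genes.

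The genotypes were also compared in this response directly. The difference between the U.SK responses of “1511” and “1601” was called for 1 member, against 0.45% of all genes, and that member was TEA019706 (log2 difference -3.36 ± 0.69, adjusted p = 0.0367, edgeR). For TEA017264 the difference was -3.47 ± 0.91 with an adjusted p of 0.0725, and for TEA010168 it was -3.86 ± 0.89 with 0.0542. An unadjusted p under 0.05 was reached by 19 members, and by 5666 of the 35557 genes (15.9%). Leaving out “1511” U.NK replicate 2 raised the count to 15 and leaving out “1511” U.SK replicate 3 raised it to 5, while 9 of the other 10 omissions, “1511” U.NK replicate 1 being the exception, left 0. Limma voom called 30.

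The side without K in the heterogeneous box differed strongly from roots starved on both sides in “1511”. Both Sp.SK and U.SK roots stood in 0 mM K2SO4, and 28 of the 62 members were called between them (45.2%, against 31.1% of all genes). Of these 21 were higher on Sp.SK and 7 lower, where 17.4% of all genes were higher and 13.8% lower. The higher members were 5 ZIP, 5 NRAMP, 7 OPT, 2 CDF and 2 VIT genes. The lower members were 1 ZIP, 1 NRAMP, 2 OPT and 3 CDF genes. The median log2 fold change of the 62 was 0.15, against 0 over all genes.

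TEA017264 had 260, 150 and 61.5 FPKM on Sp.SK in “1511” against the 8.81 to 13.7 of U.SK. Every Sp.SK library was above every U.SK library, although the Sp.SK libraries themselves differed severalfold. The log2 fold change was 3.88 ± 0.70 (14.8-fold, adjusted p = 0.000794, edgeR). In “1601” Sp.SK had 174, 367 and 120 FPKM, which overlapped its U.SK libraries of 336 to 475 (log2 fold change -0.84 ± 0.62, adjusted p = 0.456).

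TEA010168 had 14.5, 9.42 and 10.8 FPKM on Sp.SK in “1511”, far above the 0.687 to 0.838 of U.SK (log2 fold change 3.93 ± 0.69, adjusted p = 0.00066, edgeR). It was one of the 3 largest rises among called members with no overlap. In “1601” it had 8.34, 12.8 and 9.33 on Sp.SK and 8.37, 13.6 and 14.0 on U.SK, which overlapped. A second VIT gene, TEA025337, which also carries a Major Facilitator Superfamily domain, had 2.55, 2.62 and 1.51 FPKM on Sp.SK in “1511” against 0.122, 0.230 and 0.945 on U.SK. Its groups did not overlap (2.30 ± 0.56, adjusted p = 0.00525).

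TEA019706 had 5.35, 2.94 and 2.14 FPKM on Sp.SK in “1511”, against at most 0.759 on U.SK (log2 fold change 3.00 ± 0.54, adjusted p = 0.000746, edgeR). TEA021263 had 11.2, 9.14 and 6.46 FPKM on Sp.SK and at most 1.70 on U.SK (2.89 ± 0.60, adjusted p = 0.00184). Both OPT genes were thus higher in all 3 Sp.SK libraries. TEA018013, a further OPT gene with low counts, had 53, 9 and 12 counts on Sp.SK and 4, 3 and 0 on U.SK, and its fitted fold change rests on these few counts.

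TEA009385 had 56.5, 40.7 and 24.9 FPKM on Sp.SK in “1511” against 3.21 to 11.2 on U.SK (log2 fold change 2.60 ± 0.67, adjusted p = 0.00719, edgeR). TEA016960 had 56.0, 58.3 and 58.2 on Sp.SK against 19.95 to 27.3 on U.SK (1.30 ± 0.25, adjusted p = 0.00114). The Sp.SK libraries of this CDF gene lay within a narrow range. The other CDF gene that rose was TEA011345 (1.22 ± 0.25, adjusted p = 0.00188), whose model also holds an aldo/keto reductase domain.

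The 5 ZIP genes that rose on Sp.SK in “1511” did so by less than the NRAMP, OPT and VIT genes above. Their log2 fold changes were 1.57 for TEA024658, 1.41 for TEA032109, 0.84 for TEA024433, 0.81 for TEA001242 and 0.69 for TEA016865. TEA001242, the third ZIP gene by level, had 50.1, 39.7 and 39.7 FPKM on Sp.SK and 23.3, 24 and 27.3 on U.SK. All its Sp.SK libraries lay above U.SK (adjusted p = 0.00405, edgeR). TEA016865, which also has a Kelch motif, overlapped between the groups. The remaining OPT and NRAMP genes that rose, TEA004183, TEA027163, the plus-strand model of scaffold 14480, TEA015243, TEA000624, the new gene of scaffold 12221 and TEA017931, had log2 fold changes from 0.50 to 1.49.

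The 7 lower members changed less. TEA020588, the OPT gene that fell most, lies on scaffold 98 at 341702 to 347674. It had 1.52, 1.95 and 1.99 FPKM on Sp.SK in “1511” and 5.85, 3.65 and 4.14 on U.SK (log2 fold change -1.31 ± 0.31, adjusted p = 0.00427, edgeR). TEA010440 had 4.66, 3.06 and 3.16 FPKM on Sp.SK against 4.82 to 12.8 on U.SK (-1.19 ± 0.28, adjusted p = 0.00419). The OPT gene TEA005176, which also carries a UbiA prenyltransferase domain, had 6.17, 6.35 and 6.52 FPKM on Sp.SK and 15.3, 14.7 and 8.49 on U.SK (-0.997 ± 0.21, adjusted p = 0.00209). None of the 3 overlapped between the groups. TEA002622, TEA012253, TEA002429 and TEA006333 fell by 0.59 to 0.80 on the log2 scale, and of these TEA012253 overlapped.

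The U.SK libraries of “1511” enter both of the comparisons above, so the falls on U.SK and the rises on Sp.SK are not independent of each other. Among the 21 members higher on Sp.SK, U.NK replicate 2 was the lowest U.NK library for 20, against 30 of all 62 tested members. That library is not one of those compared here, but it enters the estimate of the spread shared by all 24 libraries. The Casparian strip genes summed to 2125 to 2411 FPKM on U.SK in “1511” and to 989 to 1498 on Sp.SK, the chlorophyll a-b binding genes to 227 to 323 and 195 to 221. The RuBisCO small chain genes summed to 212 to 470 on U.SK and 319 to 483 on Sp.SK, which overlapped. The part of these lists in the result was not tested. Leaving out Sp.SK replicate 1 lowered the count from 28 to 18, and the call of TEA010440 was lost without U.SK replicate 1 (adjusted p = 0.056).

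In “1601” 10 members were called between Sp.SK and U.SK (16.1%, against 6.82% of all genes), with 1 higher and 9 lower. Over all genes 2.58% were higher and 4.24% lower. The 9 lower members were 3 ZIP, 2 NRAMP, 3 OPT and 1 CDF gene, and none of the VIT genes was called. The median log2 fold change of the 62 was -0.20, against 0 over all genes. In all 10 the libraries of the groups did not overlap. The share without overlap was not counted over all genes, so this is no result about the members.

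TEA025765, an OPT gene on scaffold 2881 at 724481 to 729515, had 1.79, 1.05 and 1.41 FPKM on Sp.SK in “1601” and 5.50, 4.61 and 12.1 on U.SK (log2 fold change -2.38 ± 0.60, adjusted p = 0.0236, edgeR). TEA016756 had 0.388, 0.620 and 0.351 FPKM on Sp.SK and 1.91, 1.47 and 2.35 on U.SK (-2.07 ± 0.36, adjusted p = 0.00313). TEA022035 had 3.90, 4.96 and 5.71 on Sp.SK and 14.3, 11.8 and 8.99 on U.SK (-1.27 ± 0.36, adjusted p = 0.0392). These were the 3 largest falls among the called members, and all were OPT genes. Larger falls than that of TEA022035 that did not pass the test were fitted for the ZIP gene TEA023203 (-1.95, adjusted p = 0.107), the VIT gene TEA015983 (-1.67, 0.0518) and the OPT gene TEA021263 (-1.56, 0.108), each without overlap of the libraries. In “1511” the log2 fold changes of TEA025765, TEA016756 and TEA022035 were -0.51, 0.08 and 0.26 in this order, and none of these was called.

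The other members that fell in “1601” were TEA028921, TEA002622, TEA009453, TEA022476, the new gene of scaffold 12221 and TEA001242, with log2 fold changes of -1.16 to -0.63. The ZIP gene TEA001242 was called in both genotypes, rising in “1511” and falling in “1601”, and so was the newly assembled NRAMP gene of scaffold 12221. The ZIP gene TEA032109, on scaffold 1538 at 1386910 to 1391235, was the 1 member that rose. It had 13.8, 24.7 and 18.1 FPKM on Sp.SK in “1601” and 7.75, 8.54 and 6.19 on U.SK (log2 fold change 1.32 ± 0.36, adjusted p = 0.0331, edgeR). It also rose in “1511”, from 2.60 to 5.34 FPKM on U.SK to 7.48 to 14.0 on Sp.SK.

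The count in “1601” rested on every library. It was 1, 3 and 6 without Sp.SK replicates 1, 2 and 3 and 3, 2 and 4 without U.SK replicates 1, 2 and 3. Of the members with values given, the call of TEA016756 alone held in all 6 of these fits, while that of TEA032109 was lost in all 6 (adjusted p 0.0509 to 0.114). DESeq2 on the 6 compared libraries called 18 members and limma voom 26.

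**Figure D3:**
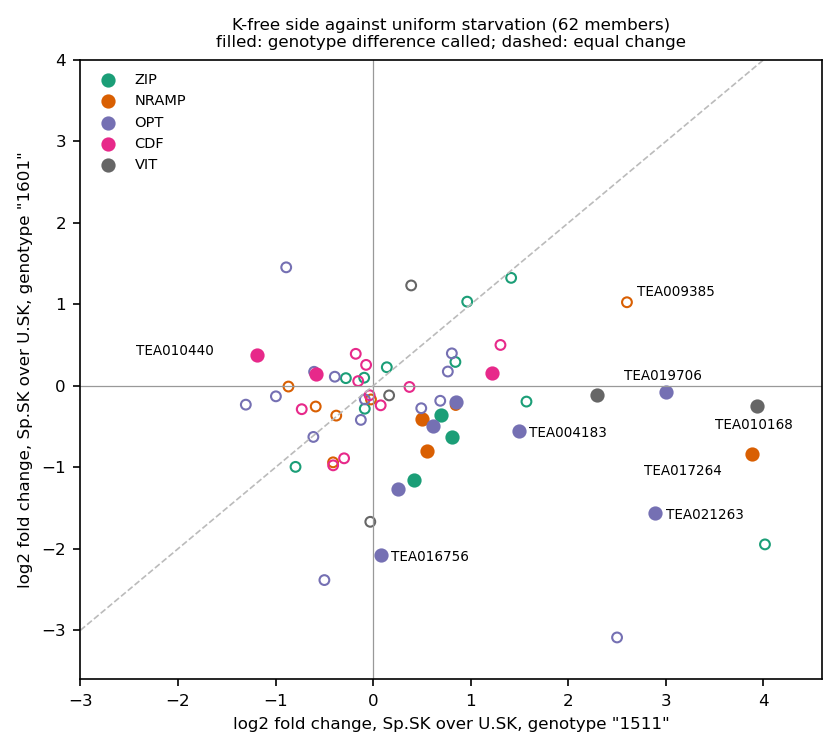
Log2 fold change of Sp.SK over U.SK in “1511” (x axis) and in “1601” (y axis) for the 62 tested members, coloured by family. Filled points are the 18 members whose change differed between the genotypes in edgeR, open points are the others and the dashed line marks equal change. TEA017264, TEA010168, TEA019706 and TEA021263 lie far to the right and below the line, with 3.88, 3.93, 3.00 and 2.89 in “1511”. The open points at the far lower right are TEA023203 and TEA018013, whose values rest on counts near 0.

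The change between Sp.SK and U.SK differed between the genotypes for 18 members (29.0%, against 14% of all genes). In 16 of them the change was more positive in “1511” and in 2 it was more negative, where 9.15% and 4.86% of all genes went these ways. The 16 were 3 ZIP, 3 NRAMP, 7 OPT, 1 CDF and 2 VIT genes. The 2 were the CDF genes TEA010440 and TEA006333. The median difference over the 62 was 0.47 on the log2 scale, against 0.04 over all genes. Limma voom called 30 members.

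The difference was 4.72 ± 0.93 for TEA017264 (adjusted p = 0.00309, edgeR). It was 4.45 ± 0.83 for TEA021263 (0.00229), where the “1601” libraries had 1.35, 1.38 and 0.637 FPKM on Sp.SK and 3.45, 3.07 and 3.34 on U.SK. It was 4.18 ± 0.88 for TEA010168 (0.00458). All 3 passed the test in each of the 12 fits that left out 1 of the libraries compared. The values of TEA021263 may include reads of the model that overlaps it on the opposite strand. TEA009385, which rose in “1511”, had 41.8, 24.2 and 5.95 FPKM on Sp.SK and 9.53, 15.3 and 10.3 on U.SK in “1601”, and its difference of 1.58 ± 0.90 was not called (adjusted p = 0.256).

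TEA010440 had 5.40, 5.02 and 3.82 FPKM on Sp.SK in “1601” and 3.73, 3.82 and 3.38 on U.SK, and its difference was -1.56 ± 0.40 (adjusted p = 0.0138, edgeR). TEA006333 had 16.2, 18.2 and 15.3 FPKM on Sp.SK in “1601” and 14.8, 15.4 and 14.8 on U.SK. In “1511” it had 15.3, 19.8 and 19.2 on Sp.SK and 31.2, 28.2 and 23.2 on U.SK, and its difference was -0.73 ± 0.22 (adjusted p = 0.0342). The call of TEA010440 was lost without “1511” U.SK replicate 1 (0.0558), and that of TEA006333 in 7 of 12 such fits, with the highest adjusted p of 0.105 also without “1511” U.SK replicate 1.

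**Figure D4:**
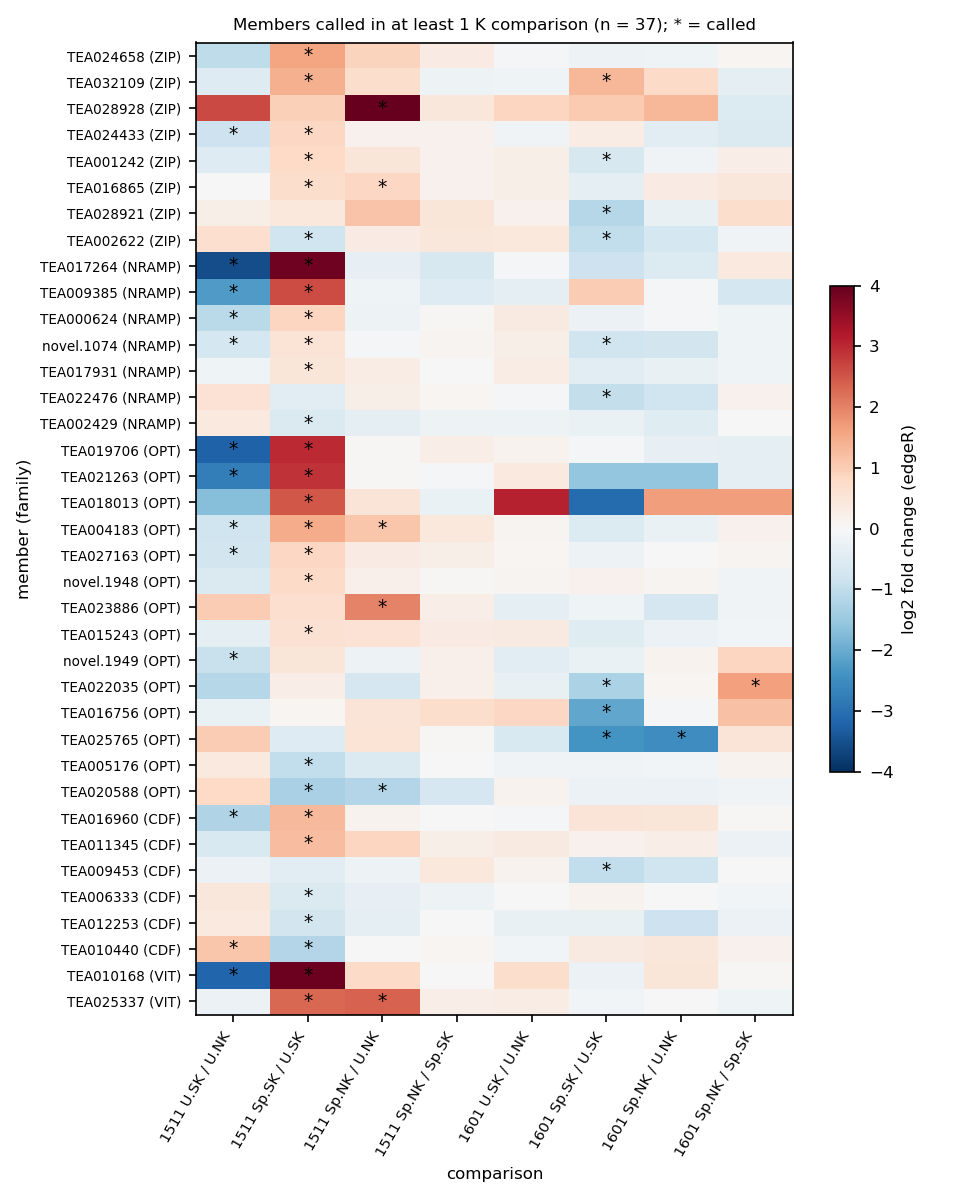
Log2 fold change in the 8 K comparisons (columns, 4 in each genotype) of the 37 members called in at least 1 of them, ordered by family, with red for higher in the condition named first and blue for lower. Asterisks mark calls, of which the 28 of “1511” Sp.SK against U.SK form the fullest column. The values of TEA028928 and TEA018013 rest on counts near 0.

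On the side supplied with K, fewer members differed from roots with K on both sides. In “1511” 6 members were called between Sp.NK and U.NK (9.68%, against 4.61% of all genes), with 5 higher and 1 lower, where 2.67% and 1.94% of all genes were. The OPT gene TEA023886, on scaffold 1641 at 204520 to 217426, had 1.19, 0.726 and 1.15 FPKM on Sp.NK and 0.135, 0.446 and 0.204 on U.NK (log2 fold change 1.98 ± 0.43, adjusted p = 0.0261, edgeR). TEA025337 had 2.87, 1.64 and 3.62 FPKM on Sp.NK and 0.339, 0.263 and 0.980 on U.NK (2.36 ± 0.54, adjusted p = 0.0282). Both rose without overlap of the libraries.

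The ZIP gene TEA028928 had 12, 7 and 36 counts on Sp.NK in “1511” and 0, 0 and 3 on U.NK, and no fold is given against so few counts. TEA004183 and TEA016865 rose by 1.11 ± 0.23 and 0.83 ± 0.24 on the log2 scale. TEA020588 was the member that fell, with 1.43, 0.943 and 1.02 FPKM on Sp.NK and 2.14, 3.35 and 2.21 on U.NK (-1.16 ± 0.32, adjusted p = 0.046). The highly expressed NRAMP gene TEA017264 had 173, 25.05 and 102 FPKM on Sp.NK, which overlapped U.NK (-0.32 ± 0.62, adjusted p = 0.799).

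These 6 calls were the least stable of the “1511” comparisons with U.NK. Without U.NK replicate 1, 2 or 3 the count was 0, 1 or 16, without Sp.NK replicate 2 or 3 it was 3 or 0, and edgeR on the compared libraries called 0 (13 had an unadjusted p under 0.05) where DESeq2 called 4 and limma voom on all libraries 23. The chlorophyll a-b binding genes summed to 247 to 405 FPKM on Sp.NK and 139 to 215 on U.NK. The RuBisCO small chain genes summed to 359 to 450 on Sp.NK and 384 to 559 on U.NK, which overlapped. The part of both lists was not tested.

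In “1601” 1 member was called between Sp.NK and U.NK, against 0.9% of all genes. TEA025765 had 1.12, 2.12 and 2.80 FPKM on Sp.NK and 11.8, 13.9 and 8.28 on U.NK (log2 fold change -2.49 ± 0.59, adjusted p = 0.0497, edgeR). Its libraries did not overlap. The call was lost when any of the 6 libraries was left out (adjusted p 0.071 to 0.204). Other tests called more members, with 6 in edgeR and 11 in DESeq2 on the compared libraries and 12 in limma voom. The chlorophyll a-b binding genes summed to 334 to 849 FPKM on Sp.NK and 892 to 1029 on U.NK. The RuBisCO small chain genes summed to 368 to 485 on Sp.NK and 461 to 509 on U.NK, which overlapped. The part of both lists was not tested.

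Between the sides of the heterogeneous box, few members differed. Both sides belong to the same plants and boxes, which the test did not take into account. In “1511” edgeR, DESeq2 and limma voom each called 0 of the 62 between Sp.NK and Sp.SK, and edgeR called 0% of all genes. An unadjusted p under 0.05 was found for 2 members in edgeR, and for 1698 of all genes. The smallest belonged to the OPT gene TEA025648, with 7, 6 and 3 counts on Sp.NK and 39, 20 and 7 on Sp.SK (log2 fold change -1.64 ± 0.63, unadjusted p = 0.0171, adjusted p = 0.936). TEA017264 differed by -0.65 ± 0.62 between the sides and TEA010168 by -0.01 ± 0.54, with adjusted p of 0.941 and 1.

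In “1601” the sides differed for 1 member, against 1.34% of all genes. TEA022035, an OPT gene on scaffold 436 at 546840 to 564719, had 15.1, 17.2 and 12.8 FPKM on Sp.NK and 3.90, 4.96 and 5.71 on Sp.SK (log2 fold change 1.64 ± 0.36, adjusted p = 0.0257, edgeR). Its Sp.SK libraries were also below those of U.NK, which had 10.9, 15.7 and 16.3. The call held without Sp.NK replicate 3 and was lost without any of the other 5 libraries (adjusted p 0.0519 to 0.166). DESeq2 on the compared libraries called 2 members and limma voom 6.

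The levels of the genotypes were also compared across conditions. Averaged over the 4 conditions, 38 of the 62 members were called between “1511” and “1601” (61.3%). The share over all genes was also 61.3%, so the count is no result about the members, and the genotypes were not tested within each condition. In “1511” 16 were higher and 22 lower, where 28.5% of all genes were higher and 32.8% lower. By family, 2 ZIP genes were higher and 8 lower, 4 NRAMP higher and 2 lower, 6 OPT higher and 6 lower, 4 CDF higher and 3 lower, and 3 VIT lower. For 6 of the 38 the 12 libraries of one genotype did not overlap the 12 of the other. The share without overlap was not counted over all genes, so this count is no result about the members either.

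The ZIP gene TEA023203, on scaffold 5319 at 144856 to 146903, was nearly absent from “1511”. It had 13 counts over the 12 libraries of “1511”, with at most 7 in a library, and 738 over the 12 of “1601”, with 7 to 152 in each. The highest “1511” library, Sp.SK replicate 1, had 0.272 FPKM and the lowest “1601” library, also Sp.SK replicate 1, had 0.414, so the FPKM values did not overlap. Within “1601” the values were 9.76, 5.99 and 6.42 FPKM on U.NK and 0.414, 2.83 and 0.425 on Sp.SK. The reverse held for the OPT gene TEA018013, with 157 counts over the libraries of “1511” and 4 over those of “1601”.

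The OPT gene TEA020595 had 0.573 to 2.41 FPKM in “1511”, with a median of 1.16, and 4.29 to 10.0 in “1601”, with a median of 6.81 (log2 fold change -2.49 ± 0.15, adjusted p = 2.21e-11, edgeR). No library of one genotype reached the range of the other. The OPT gene TEA005176 was higher in “1511”, with 5.84 to 15.3 FPKM and a median of 6.90, than in “1601”, with 3.37 to 5.23 and a median of 4.41 (0.89 ± 0.11, adjusted p = 4.27e-07). TEA006539, also of the OPT family, had 19.9 to 28.7 FPKM in “1511” and 9.84 to 19.4 in “1601” (0.62 ± 0.09, adjusted p = 5.75e-06). Its values may include reads of the model that overlaps it on the opposite strand.

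TEA027163 went the other way among OPT genes, with 4.03 to 12.9 FPKM in “1511” and 13.0 to 17.8 in “1601” (-0.76 ± 0.10, adjusted p = 1.46e-06, edgeR). The VIT gene TEA001524 had 1.497 to 2.58 FPKM in “1511” and 2.79 to 4.43 in “1601” (-0.83 ± 0.12, adjusted p = 3.92e-06). Neither overlapped between the genotypes. The most abundant OPT gene, TEA025123, had 69.2 to 134 FPKM in “1511” and 33.0 to 77.8 in “1601”, and was higher in “1511” by 0.98 ± 0.11 on the log2 scale with some overlap.

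TEA017264 had a mean of 98.1 ± 87.0 FPKM (SD, n = 12) in “1511” and 328 ± 110 in “1601” (log2 fold change -2.25 ± 0.33, adjusted p = 5.34e-06, edgeR). Ordered by level, its groups ran from U.NK in “1601” (414 ± 77.5, SD, n = 3) through U.SK (392 ± 73.5), Sp.NK (285 ± 33.1) and Sp.SK (220 ± 130) of that genotype to Sp.SK (157 ± 99.3), U.NK (124 ± 92.3), Sp.NK (100 ± 74.0) and U.SK (10.7 ± 2.67) of “1511”. Neighbours in this order overlapped in their libraries except U.SK and Sp.NK of “1601” and Sp.NK and U.SK of “1511”. The fall on U.SK in “1511” therefore took the gene to its lowest level of all groups.

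The 26 chlorophyll a-b binding genes, of which 1 had no count, summed to 139 to 405 FPKM in the libraries of “1511” and to 334 to 1876 in those of “1601”. The RuBisCO small chain genes summed to 212 to 559 in “1511” and 364 to 743 in “1601”. Both sums overlapped, and their part in the genotype differences was not tested. The count of 38 moved between 37 and 40 when any 1 of the 24 libraries was left out.

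**Figure D5:**
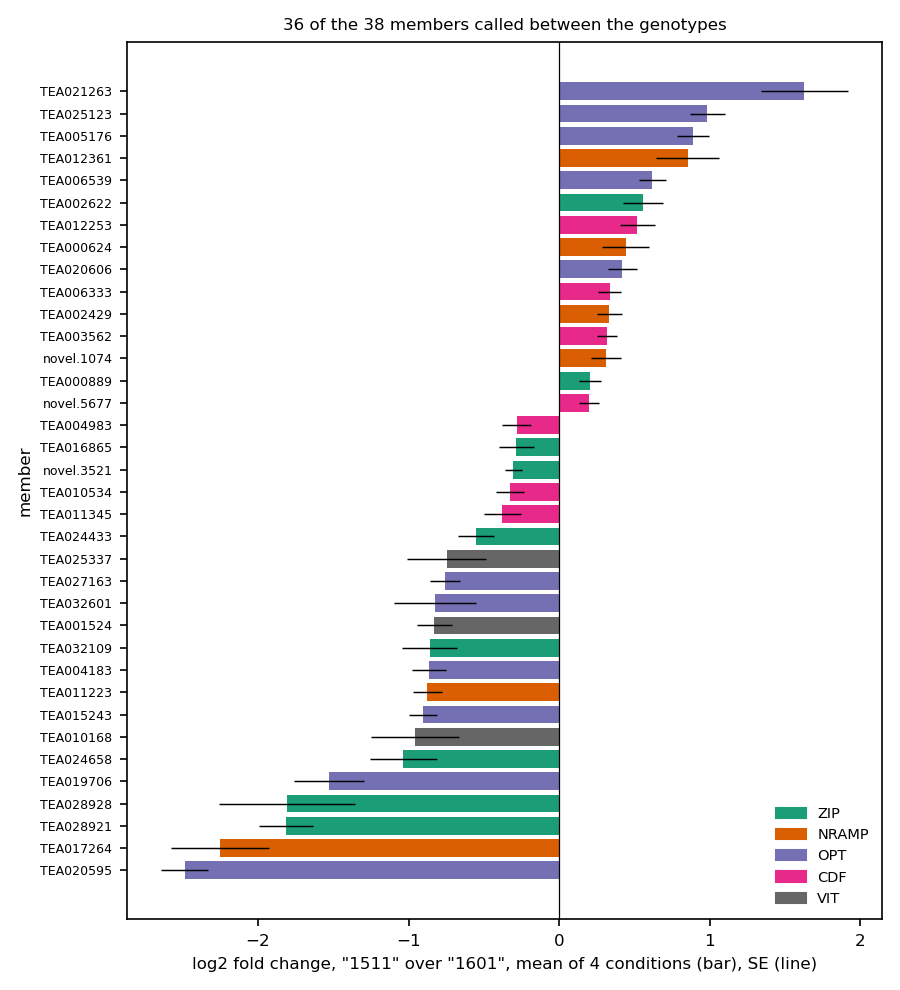
Log2 fold change of “1511” over “1601”, averaged over the 4 conditions, for 36 of the 38 members called (bars, coloured by family, with lines for the SE). TEA023203 and TEA018013, with almost no counts in one genotype, are left out. The longest bars to the left are TEA020595 (-2.49) and TEA017264 (-2.25), and the longest to the right is TEA021263 (1.63), which on U.SK had 0.682 to 1.70 FPKM in “1511” and 3.07 to 3.45 in “1601”.

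Some members lie beside each other in the genome, and their expression was compared by place. Of the 93 members, 17 on 8 scaffolds lie within 100 kb of another member, and 9 of these were tested. On scaffold 98 the OPT genes TEA020588, TEA020595 and TEA020606 follow each other between 341702 and 411453, all on the plus strand. TEA020606, the most abundant, had 8.79 to 15.5 FPKM in “1511” and 6.36 to 10.8 in “1601”, 0.42 ± 0.09 higher in “1511” on the log2 scale. TEA020595 was lower in “1511”, as given above, and TEA020588 was not called between the genotypes but changed between conditions in “1511”. These 3 neighbours thus had 3 different patterns.

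On scaffold 3816 the ZIP genes TEA028928 (268142 to 274432) and TEA028921 (293277 to 297697) were both lower in “1511”. TEA028921 had 1.44 to 12.1 FPKM in “1511” and 8.87 to 32.1 in “1601” (log2 fold change -1.81 ± 0.18, adjusted p = 3.19e-08, edgeR). TEA028928 had at most 36 counts in a library of “1511” and 7 to 78 in those of “1601”. On scaffold 8161 the NRAMP gene TEA000624 (589813 to 593321) was expressed, with 12.3 to 43.5 FPKM in “1511”, while its neighbour TEA000600 (572108 to 576485) had no count.

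On scaffold 2547 both OPT genes, TEA025648 and TEA025651, were weakly expressed, with at most 1.49 and 0.797 FPKM. On scaffold 14480 the overlapping OPT models are counted as neighbours too. The pairs TEA028735 and TEA028741 (ZIP, scaffold 114), TEA000063 and TEA000076 (OPT, scaffold 278) and TEA002967 and TEA002970 (VIT, scaffold 2253) were not tested for lack of counts.

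Other genes of metal handling were counted by their domains. Lists for ferric reductases, nicotianamine synthases, ferritins, Ctr copper transporters, heavy-metal-associated domains, metallothioneins, phytochelatin synthases, MATE efflux proteins, ferroportins, hemerythrins and CorA-like magnesium transporters held 220 genes, of which 174 were tested. In “1511” 6 of them were higher and 19 lower on U.SK than on U.NK (14.4% called, against 7.84% of all genes). Between Sp.SK and U.SK 46 were higher on Sp.SK and 30 lower (43.7%, against 31.1%). In “1601” the latter comparison gave 7 higher and 19 lower (14.9%, against 6.82%). The change between Sp.SK and U.SK differed between the genotypes for 46 (26.4%, against 14%), and for 37 of these it was more positive in “1511”.

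Ferric reductases reduce iron at the root surface ahead of its uptake in many plants. The list under this name rests on domains alone, which do not show that each gene does this. Its counts describe genes with these domains and are no result about iron reduction. It counted 18 genes with 13 tested. On U.SK in “1511” 4 were lower than on U.NK and none higher (30.8% called, against 7.84% of all genes). On Sp.SK in “1511” 5 were higher than on U.SK and none lower, and this 38.5% lay near the 31.1% of all genes. In “1601” Sp.SK had 4 lower than U.SK and none higher (30.8%, against 6.82%). The difference between the genotypes in Sp.SK against U.SK was called for 9 of the 13, all more positive in “1511” (69.2%, against 14%), and that in U.SK against U.NK for 0. Averaged over the conditions 2 were higher and 6 lower in “1511” (61.5%, against 61.3%). Of 11 metallothioneins tested, small metal-binding proteins, in “1511” Sp.SK against U.SK 5 rose and 1 fell (54.5% called, against 31.1% of all genes). Of 7 ferritins tested, which store iron in plastids, 2 were higher and 4 lower in that comparison (85.7%).

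Nicotianamine synthases make the chelator that YSL carriers move together with metals, and both genes of this kind were tested. TEA020761, on scaffold 281 at 1625577 to 1626533, had 84.0, 10.7 and 116 FPKM on U.NK in “1511”, 7.25, 7.09 and 6.68 on U.SK and 165, 99.8 and 60.2 on Sp.SK. U.SK was below every other library of “1511”. Its log2 fold change was -3.34 ± 0.57 on U.SK (adjusted p = 0.00352, edgeR) and 3.97 ± 0.58 for Sp.SK over U.SK (0.000219). In “1601” it stayed between 134 and 322 FPKM in all 12 libraries, and the difference between the genotypes in Sp.SK against U.SK was 3.73 ± 0.75 (0.00376).

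TEA002875, on scaffold 2806 at 305783 to 306757, had 56.5, 1.22 and 48.6 FPKM on U.NK in “1511”, 3.64, 4.16 and 1.84 on U.SK and 42.3, 25.1 and 15.3 on Sp.SK. Here U.NK replicate 2 lay below all U.SK libraries, while the other U.NK libraries lay above them. The log2 fold changes were -3.49 ± 0.82 on U.SK (adjusted p = 0.0136, edgeR) and 3.13 ± 0.81 for Sp.SK over U.SK (0.00707). In “1601” the gene had 8.68 to 27.9 FPKM and was not called in any K comparison, and the difference between the genotypes in Sp.SK against U.SK was 2.79 ± 1.06 (0.0828), which did not pass the test.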

How the data were processed

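Roots of 2 genotypes in 4 conditions were sequenced with 3 libraries per group. The submitters' processing notes name CASAVA 1.7 and HISAT2 2.0.5, new gene models came from StringTie, and the counting program and its use of strand are not given in the sources used here. The authors deposited whole-number counts per gene, not normalized, and FPKM values, each being the count over the gene length and 1 size per library. The lengths of the deposited TEA models are coding lengths. Totals were 13214833 to 26309637 counts, and replicates correlated with r of 0.918 to 0.979 on log2 CPM.

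Counts were tested in R 4.3.3 with edgeR 4.0.16 (TMM, filterByExpr, 8 group means over 24 libraries, glmQLFTest) with Benjamini-Hochberg adjustment across 35557 genes. A call needed an adjusted p under 0.05. The alternatives were DESeq2 1.42.0 (its size factors, or its test), limma 3.58.1 voom with quality weights, other filters, a replicate term, the compared libraries alone and each library left out. The tests were checked on simulated data. FPKM was used for levels and ranks only.

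Members follow from their Pfam domains. Members and lists were chosen with earlier results of these data known. Named genes were the 3 most abundant per family, up to 3 called per direction and comparison (up to 5 between the genotypes) with no overlap and a mean of at least 1 CPM, the smallest p where none was called, and neighbours within 100 kb. Other members with values were chosen after their values were seen. Newly assembled genes are given by position. No member matched the table of reference gene names. Replicates within a group were separate root boxes by the methods, each with several plants, so p-values measure the spread between boxes. The Sp.NK and Sp.SK libraries came from the sides of the same boxes. The fit treated them as independent, so the tests between the sides left this pairing out.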

Additional observations from a re-analysis of the deposited data

Results flagged for a closer look

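These results differed between the genotypes by a test of the difference itself, the log2 fold change in “1511” minus that in “1601” (edgeR, Benjamini-Hochberg adjusted). For Sp.SK against U.SK the difference was 4.72 for TEA017264, 4.45 for TEA021263, 4.18 for TEA010168, 3.07 for TEA019706, 2.42 for TEA025337, 2.15 for TEA016756 and 2.05 for TEA004183. It was 1.57 for TEA028921, 1.53 for TEA022035, 1.44 for TEA001242, 1.36 for the newly assembled NRAMP gene of scaffold 12221, 1.11 for TEA015243, 1.06 for TEA011345, 1.05 for TEA016865, 1.04 for TEA027163 and 0.91 for TEA017931. It was negative for TEA010440 (-1.56) and TEA006333 (-0.73). For U.SK against U.NK it was -3.36 for TEA019706. The first 18 share their U.SK libraries, so they are not separate observations of these libraries.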

How the results depend on the processing

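Counts of members called moved with the test more than with the scaling. They are given here without the share of all genes called in the same fit, so a higher count is no result about the members. With limma voom and quality weights they rose to 34 (“1511” U.SK against U.NK), 23 (“1511” Sp.NK against U.NK), 26 (“1601” Sp.SK against U.SK), 12 (“1601” Sp.NK against U.NK), 6 (“1601” Sp.NK against Sp.SK), 30 (genotype difference in U.SK against U.NK) and 30 (genotype difference in Sp.SK against U.SK). With edgeR on only the libraries compared they were 0, 0 and 0 for “1511” U.SK against U.NK, “1511” Sp.NK against U.NK and the genotype difference in U.SK against U.NK (18, 13 and 19 members at an unadjusted p under 0.05) and 6 for “1601” Sp.NK against U.NK. With DESeq2 on these libraries they were 5 for “1511” U.SK against U.NK, 18 and 11 for “1601” Sp.SK against U.SK and Sp.NK against U.NK, 2 for “1601” Sp.NK against Sp.SK and 4 for the genotype difference in U.SK against U.NK. The single call of “1601” Sp.NK against U.NK became 0 with DESeq2's size factors and with no filter. That of the genotype difference in U.SK against U.NK became 2 with no filter and 0 with at least 10 counts in every library. The causes were not tested.

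Leaving out 1 library, the counts ranged from 2 to 21 (“1511” U.SK against U.NK), 18 to 24 (“1511” Sp.SK against U.SK), 0 to 16 (“1511” Sp.NK against U.NK), 1 to 6 (“1601” Sp.SK against U.SK), 0 throughout (“1601” Sp.NK against U.NK), 0 to 1 (“1601” Sp.NK against Sp.SK) and 0 to 15 (genotype difference in U.SK against U.NK). No value of a named member changed sign where it was called. With CPM in place of FPKM, 59 of 62 members kept the same highest group.

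The replicate numbers were not used as pairs in the main fit. Of 84 same-numbered pairs 14 correlated above 0.1 (range -0.278 to 0.459), and of the 6 pairs of Sp.NK and Sp.SK sides none did. The highest values were those of “1511” U.NK with “1511” Sp.NK, 0.459 for replicate 3 and 0.392 for replicate 2. Replicate 1 of these groups had 0.0545. Libraries of this comparison thus deviated together for replicates 2 and 3. With the replicate number as a block the counts were 11, 27, 7 and 0 in “1511” (U.SK against U.NK, Sp.SK against U.SK, Sp.NK against U.NK, Sp.NK against Sp.SK), 0, 8, 0 and 1 in “1601”, 38 between the genotypes, and 0 and 20 for the genotype differences in U.SK against U.NK and in Sp.SK against U.SK. Low counts limit what can be said of the 31 untested members.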
